A study of Rattus norvegicus with 28 samples.

Results

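The cytosolic ribosomal protein genes are the genes for the proteins of the 40S and 60S ribosomal subunits that translate nuclear messenger RNA. They were taken as all genes whose platform symbol is Rpl, Rps or Rplp followed by a number and at most a short ending, leaving out the S6 kinases and copies named with l and a number. The rule found 44 genes, 14 of the 40S and 30 of the 60S subunit, among 14217 genes with 1 symbol. Each gene was read from its brightest probe set by the mean of all 28 arrays. A probe set is the group of short array probes that report 1 transcript.

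RNA was measured with 28 Affymetrix expression arrays on kidneys of female rats of the strains SBH/y and SBN/y, killed at 5 months of age. The 4 groups had 7 arrays each: uninephrectomized SBH/y, with 1 kidney left, uninephrectomized SBN/y, SBH/y with both kidneys after a sham operation, and SBN/y with both kidneys after a sham operation. The operation took place 4 months before the kidneys were frozen, and all rats ate standard chow. SBH/y and SBN/y are known as the Sabra rat strains that develop and that resist salt-sensitive hypertension, and the series concerns protein loss in urine. The labels do not say which zone of the kidney was used, whether animals were pooled or whether each array stands for 1 animal, so the p-values speak of the spread among these arrays, which may be technical.

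Ribosomal proteins assemble with ribosomal RNA in the nucleolus, the small subunit reads the messenger and the large subunit joins amino acids. Their messengers are among the most abundant of a cell and are known to begin with a run of pyrimidines, the 5′ terminal oligopyrimidine tract, through which mTORC1 and LARP1 control their translation. In the kidney, growth of the remaining organ after uninephrectomy is known to involve phosphorylation of ribosomal protein S6. An array of messenger RNA shows neither translation nor phosphorylation.

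The start-site windows of the 5 genes that differed between the strains are shown, with those of 5 others whose runs cover 8 to 18 bases. Each window holds 30 bases before and 30 bases from the RefSeq start on (GRCr8), read 5′ to 3′ on the gene's strand, with the longest run of C and T in capitals.
Rps23 (chr2:23814487-23814546, plus strand): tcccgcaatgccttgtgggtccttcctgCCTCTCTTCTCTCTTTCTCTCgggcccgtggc
Rpl21 (chr12:13386124-13386183, minus strand): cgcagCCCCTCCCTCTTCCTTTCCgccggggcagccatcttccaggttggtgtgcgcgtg
Rps28 (chr7:15311304-15311363, minus strand): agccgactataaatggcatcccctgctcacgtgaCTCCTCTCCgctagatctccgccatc
Rpl6 (chr12:41011661-41011720, minus strand): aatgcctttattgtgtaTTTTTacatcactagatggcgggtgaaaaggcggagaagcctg
Rps27l (chr8:76443628-76443687, plus strand): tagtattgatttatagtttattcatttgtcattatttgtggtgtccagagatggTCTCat
Rpl22 (chr5:168117931-168117990, plus strand): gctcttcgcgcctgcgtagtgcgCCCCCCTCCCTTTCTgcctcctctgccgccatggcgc
Rpl35 (chr3:43165892-43165951, minus strand): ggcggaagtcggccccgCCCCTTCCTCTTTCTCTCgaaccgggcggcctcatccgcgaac
Rplp0 (chr12:46718361-46718420, minus strand): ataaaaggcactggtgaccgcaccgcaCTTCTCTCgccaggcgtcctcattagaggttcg
Rps6 (chr5:106420511-106420570, minus strand): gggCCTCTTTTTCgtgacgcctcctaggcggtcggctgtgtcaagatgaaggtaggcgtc
Rpl3l (chr10:14258416-14258475, plus strand): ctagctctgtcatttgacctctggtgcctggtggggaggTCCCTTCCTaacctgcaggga

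A start-site window was given for 39 of the 44 genes. A run of at least 8 bases of C or T on the gene's strand was in 30 of the 39 windows (76.9%), against 7774 of all 33469 rat promoter windows of the same length (23.2%). The longest run had a median of 11 bases in the ribosomal protein genes, with a range from 3 to 24, and a median of 5 in all promoters. The run of Rps23 covered 21 bases and that of Rpl21 covered 19, whereas those of Rpl6 and Rps27l covered 5 and 4. The windows of the genes that differed between the strains thus held long runs and short ones. The runs of Rpl21 and Rpl6 began at bases -25 and -13 and ended before the annotated start. All windows rest on that annotation, and where the messengers begin in these kidneys was not tested. A run in these letters is a description and does not show a control element.

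The family as a whole was bright and steady on these arrays. Of the 44 genes, 37 had a mean above 10 log2 units over all arrays, and no gene had a mean between 7.48 and 10.91. The dividing value of 10 was set after the values were seen. The array medians of all probe sets lay between 5.72 and 5.77. The spread of a gene around its group means had a median SD of 0.067 over the 44 genes, 0.075 over the 1281 probe sets above 10 and 0.125 over all 31042 probe sets tested. Values of different probe sets depend on how their probes bind, so they give no order of abundance among the genes.

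At the upper end, the probe set of Rps29, a small zinc-binding protein of the 40S subunit, averaged 13.4 over all arrays. It was followed by Rpl26, a protein near the exit of the peptide tunnel, with 12.71, and by Rpl37a, a zinc-binding protein of the 60S subunit, with 12.69. At the lower end stood Rpl3l, known as the form of Rpl3 made in muscle, with 3.44, and Rpl28 and Rpl30, both of the 60S subunit, with 4.07 each. The other genes at or below 10 were Rps27l at 7.48, Rpl39 at 6.04, Rps4y2 at 5.54 and Rps13 at 4.48. Rps13, named here after its values were seen, Rpl28 and Rpl30 are also listed on probe sets that carry several ribosomal protein symbols, and those had means of 11.94, 11.96 and between 11.22 and 11.96. A low value of these 3 genes is therefore that of their own probe set.

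**Figure D1:**
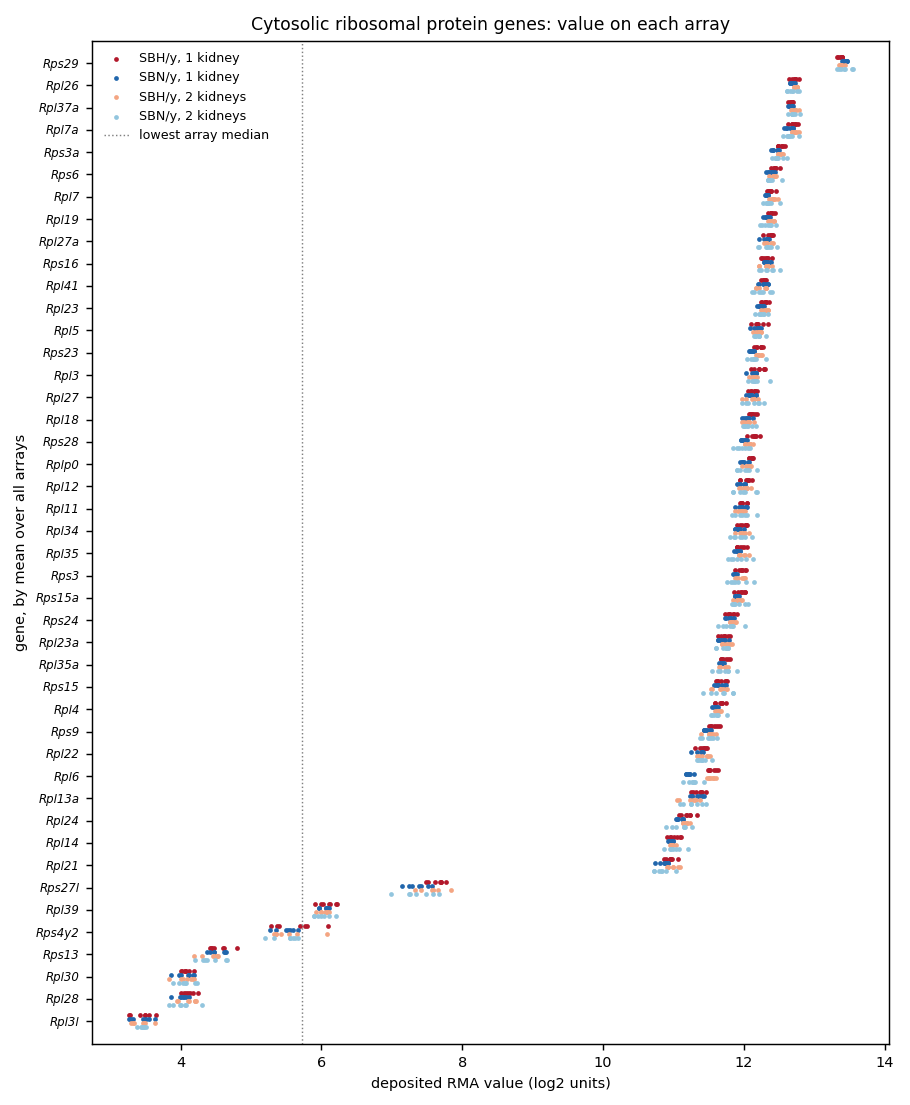
The deposited RMA value of each of the 44 genes (rows, by mean) on each of the 28 arrays (points, log2 units), coloured by group. The dotted line is the lowest array median, 5.72, and 37 genes lie above 10 with the points of the 4 groups close together.

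With both kidneys in place, most of the family differed little between SBH/y and SBN/y, and 2 genes, Rpl6 and Rpl21, were higher in SBH/y. In limma, with p-values adjusted over all probe sets by the Benjamini-Hochberg method and a threshold of 0.05, 2 of the 44 genes passed as higher and 0 as lower, while 17.9% of all probe sets passed in either direction. The unadjusted p was under 0.05 for 4 genes. The median difference of the 44 genes was 0.027 log2 units, beside -0.016 for all probe sets, and 31 of the 44 differences were positive. The 95% interval of the difference stayed within 0.2 log2 units of zero for 39 of the genes.

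Between the uninephrectomized groups, 4 genes were higher in SBH/y: Rpl6, Rps28, Rps27l and Rps23. None was lower, and 21.5% of all probe sets passed in either direction. The unadjusted p was under 0.05 for 8 genes. The median difference was 0.059 log2 units, beside -0.011 for all probe sets, and 41 of the 44 differences were positive. The intervals of 38 genes stayed within 0.2 log2 units of zero. Both strain comparisons thus had a smaller share of the 44 genes passing the test than of all probe sets, 4.55% with both kidneys and 9.09% after uninephrectomy, which describes the counts and is not a test of the family.

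For a comparison among bright probe sets, the 37 bright genes were set beside all 1281 probe sets above 10. After uninephrectomy, 3 of the 37 bright genes passed (8.11%), beside 39.0% of the bright probe sets. With both kidneys, 2 of the 37 passed (5.41%), beside 30.7%. The differences of the bright genes lay between -0.066 and 0.33 log2 units after uninephrectomy, and those of all bright probe sets between -1.36 and 2.07.

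**Figure D2:**
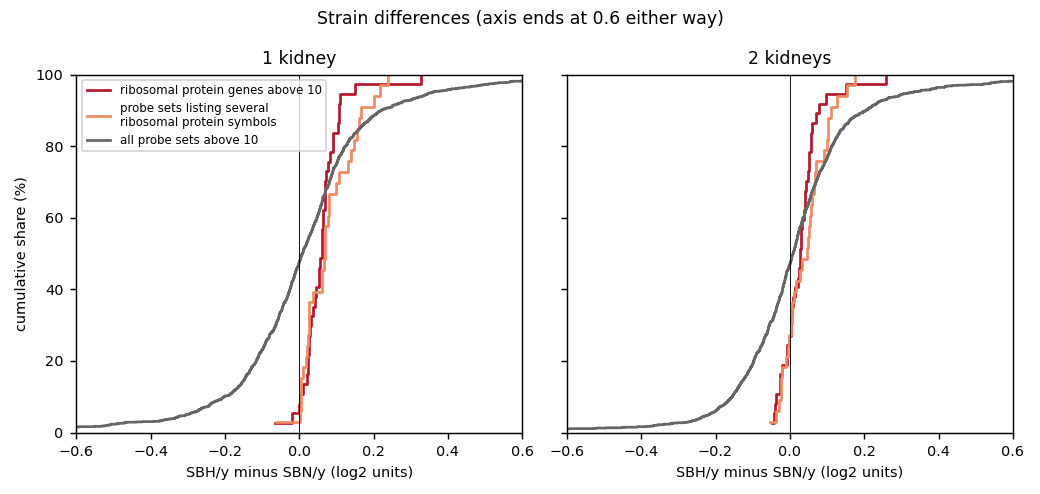
Cumulative share (%) of strain differences, SBH/y minus SBN/y in log2 units, after uninephrectomy (left) and with both kidneys (right), for the 37 ribosomal protein genes above 10, the 33 probe sets that list several ribosomal protein symbols, and all 1281 probe sets above 10. The ribosomal curves are steeper than that of all bright probe sets and lie mostly right of zero, with medians of 0.061 and 0.027 for the 37 genes.

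Rpl6 had the largest log2 difference of the family in both strain comparisons. It encodes a 60S protein found in eukaryotes. After uninephrectomy its lowest, median and highest values were 11.49, 11.52 and 11.63 in SBH/y and 11.18, 11.22 and 11.29 in SBN/y. With both kidneys they were 11.47, 11.53 and 11.61 in SBH/y and 11.14, 11.28 and 11.44 in SBN/y. All 7 SBH/y arrays lay above all 7 SBN/y arrays in both settings. The difference was 0.33 ± 0.04 log2 units (SE, adjusted p in limma 1.58e-07) after uninephrectomy, a ratio of 1.26. With both kidneys it was 0.26 ± 0.04 (SE, adjusted p in limma 1.29e-05), a ratio of 1.20. These 2 differences rest on separate arrays, and their own difference was 0.07 ± 0.06 (SE, adjusted p in limma 0.72).

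Rpl21, a 60S protein near the central protuberance, ranged from 10.91 over a median of 10.99 to 11.09 in SBH/y with both kidneys. In SBN/y with both kidneys it ranged from 10.73 over 10.82 to 11.03. The groups overlapped through 1 SBN/y array, replicate 2, and the other 6 SBN/y arrays lay below every SBH/y array. The difference was 0.15 ± 0.05 (SE, adjusted p in limma 0.017). It missed the threshold, with an adjusted p of 0.057, when only the 2 groups compared were fitted. After uninephrectomy Rpl21 differed by 0.09 ± 0.05 (SE, adjusted p in limma 0.175), which did not pass. Rpl6, Rpl21 and Rplp0 are the 3 of the 44 genes that RefSeq places on chromosome 12. Rplp0 passed in neither strain comparison, and whether position bears on the differences was not tested.

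Rps28, a 40S protein beside the exit channel of the messenger, had values of 12.05, 12.15 and 12.23 (lowest, median, highest) in uninephrectomized SBH/y. The values in uninephrectomized SBN/y were 11.96, 11.99 and 12.04. The groups did not overlap, and the difference was 0.15 ± 0.04 (SE, adjusted p in limma 0.00438). With both kidneys Rps28 had 12.01, 12.09 and 12.13 in SBH/y against 11.84, 11.97 and 12.09 in SBN/y. There the groups overlapped and the difference of 0.10 ± 0.04 (SE, adjusted p in limma 0.0865) did not pass, though it did under 3 of 11 alternatives.

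Rps23 encodes a protein of the decoding centre. It had 12.14, 12.24 and 12.27 in uninephrectomized SBH/y against 12.07, 12.11 and 12.15 in uninephrectomized SBN/y. Of the 7 SBH/y arrays, 6 lay above every SBN/y array. The difference was 0.11 ± 0.04 (SE, adjusted p in limma 0.0348). This call was the least firm of the 4: it was lost in 8 of the 28 fits that left out 1 array, where the adjusted p reached 0.0766, and with only the 2 groups compared (0.0524). The arrays were replicates 1, 3, 5 and 6 of uninephrectomized SBH/y and 3, 5, 6 and 7 of uninephrectomized SBN/y.

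Rps27l encodes a close relative of the 40S protein Rps27 and is known as a target of p53. In uninephrectomized rats it had 7.49, 7.69 and 7.77 in SBH/y against 7.14, 7.38 and 7.57 in SBN/y. The groups overlapped, with 5 SBH/y arrays above every SBN/y array. The difference was 0.28 ± 0.09 (SE, adjusted p in limma 0.0165). With both kidneys it had 7.33, 7.58 and 7.84 in SBH/y against 6.99, 7.34 and 7.67 in SBN/y, and the difference of 0.20 ± 0.09 (SE, adjusted p in limma 0.103) did not pass.

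**Figure D3:**
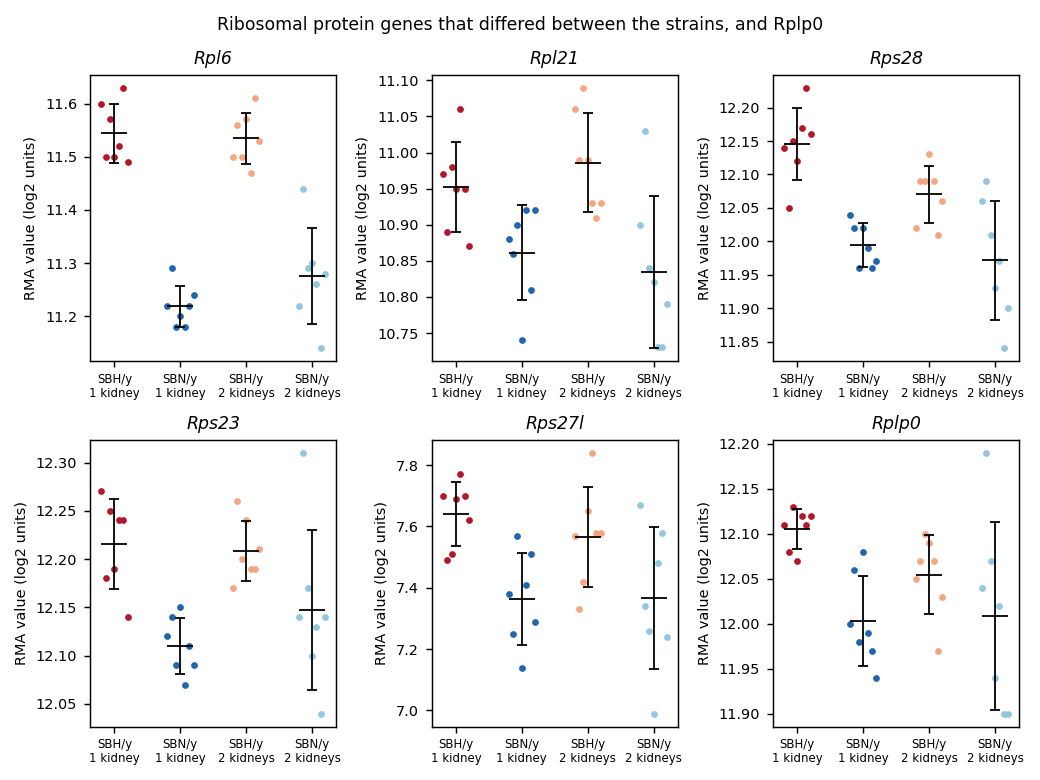
Values (RMA, log2 units) of the 5 genes that passed in a strain comparison and of Rplp0, in the 4 groups of 7 arrays. Points are arrays, and the bar and whiskers are the mean and SD. For Rpl6 every SBH/y point lies above every SBN/y point in both settings, and the axes do not start at zero.

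Groups of 7 that do not overlap were found for 3 of the 44 genes after uninephrectomy and for 1 with both kidneys. Rpl6 and Rps28 were the 2 higher in SBH/y after uninephrectomy, and Rpl6 the 1 with both kidneys. The third after uninephrectomy was Rps29, in the opposite direction, with 13.32, 13.38 and 13.40 in SBH/y against 13.40, 13.45 and 13.47 in SBN/y, where the touching values differ only beyond the second decimal. Its difference of -0.07 ± 0.04 (SE, adjusted p in limma 0.221) did not pass. Over all probe sets the shares without overlap were 9.15% and 6.82%.

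Rplp0, the base of the ribosomal stalk, often serves as a reference transcript. It had 12.07, 12.11 and 12.13 in uninephrectomized SBH/y against 11.94, 11.99 and 12.08 in uninephrectomized SBN/y. The groups overlapped, and its difference of 0.10 ± 0.04 (SE, adjusted p in limma 0.0672) did not pass. With both kidneys its difference was 0.04 ± 0.04 (SE, adjusted p in limma 0.53).

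Rps6, the 40S protein phosphorylated by S6 kinases, had 12.39, 12.44 and 12.51 in uninephrectomized SBH/y and 12.32, 12.38 and 12.44 in uninephrectomized SBN/y. With both kidneys it had 12.36, 12.43 and 12.45 in SBH/y and 12.35, 12.37 and 12.54 in SBN/y. All 4 groups overlapped, and no comparison of Rps6 passed. Its uninephrectomy effect was 0.02 ± 0.03 in SBH/y and -0.01 ± 0.03 in SBN/y (SE, adjusted p in limma 0.772 and 0.983).

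Rpl5 and Rpl11 form a particle with 5S ribosomal RNA that is known to bind MDM2 when ribosome assembly fails. Neither passed in any comparison. Rpl5 averaged 12.21 ± 0.08 and 12.19 ± 0.05 in uninephrectomized SBH/y and SBN/y, and 12.20 ± 0.04 and 12.21 ± 0.05 in SBH/y and SBN/y with both kidneys (SD, n = 7 each). Rpl11 averaged 11.99 ± 0.04 and 11.98 ± 0.06 in uninephrectomized SBH/y and SBN/y, and 11.96 ± 0.05 and 11.98 ± 0.12 in SBH/y and SBN/y with both kidneys.

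Rps3, at the entry of the messenger channel, and Rpl3, at the peptidyl transferase centre, did not pass either. Rps3 differed by 0.09 ± 0.05 between the strains after uninephrectomy (SE, adjusted p in limma 0.177). Rpl3 differed there by 0.08 ± 0.04 (SE, adjusted p in limma 0.198). Rpl22, a 60S protein that binds RNA, had differences between -0.037 and 0.043 in the 4 comparisons of groups. The paralogs and dim genes Rpl3l, Rpl39, Rpl28, Rpl30 and Rps4y2 passed in no comparison, and the interval of Rps4y2 after uninephrectomy, -0.09 to 0.36, was wide. Rps4y2 is known in humans as a Y-linked gene, while RefSeq places the rat gene on chromosome 4.

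Uninephrectomy moved no gene of the family past the threshold. In SBH/y 0 of 44 genes passed, beside 8.24% of all probe sets, and the unadjusted p was under 0.05 for 1 gene. In SBN/y 0 of 44 passed, beside 0.464% of all probe sets, and 0 had an unadjusted p under 0.05. The median effect was 0.016 log2 units in SBH/y and -0.012 in SBN/y, beside 0.009 and 0.001 for all probe sets, with 33 of 44 effects positive in SBH/y and 8 of 44 in SBN/y. Leaving out 1 array moved the median between 0.008 (without replicate 3 of uninephrectomized SBH/y) and 0.03 (without its replicate 2) in SBH/y. In SBN/y it moved between -0.03 and 0.005 (without replicates 6 and 2 of SBN/y with both kidneys). The gene with the unadjusted p under 0.05 was Rpl13a, named here after its value was seen, at 0.12 ± 0.06 in SBH/y (SE, adjusted p in limma 0.214).

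The intervals bound the effects that these arrays leave possible. In SBH/y 40 of the 44 intervals, and in SBN/y 42, stayed within 0.2 log2 units of zero, and over all 44 genes they reached no further than -0.13 and 0.32 in SBH/y and -0.23 and 0.23 in SBN/y. Among the 37 bright genes 0 passed in SBH/y, where 14.5% of the bright probe sets did, and 0 in SBN/y, where 1.72% did. The difference of the uninephrectomy effects between the strains passed for 0 of 44 genes, beside 1.41% of all probe sets, and 0 had an unadjusted p under 0.05. The comparisons share groups of arrays, so their values are not independent of each other. In bulk kidney RNA, fewer cells of a type and less RNA per cell cannot be told apart, and RMA values give shares of the RNA on an array, not amounts per cell.

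**Figure D4:**
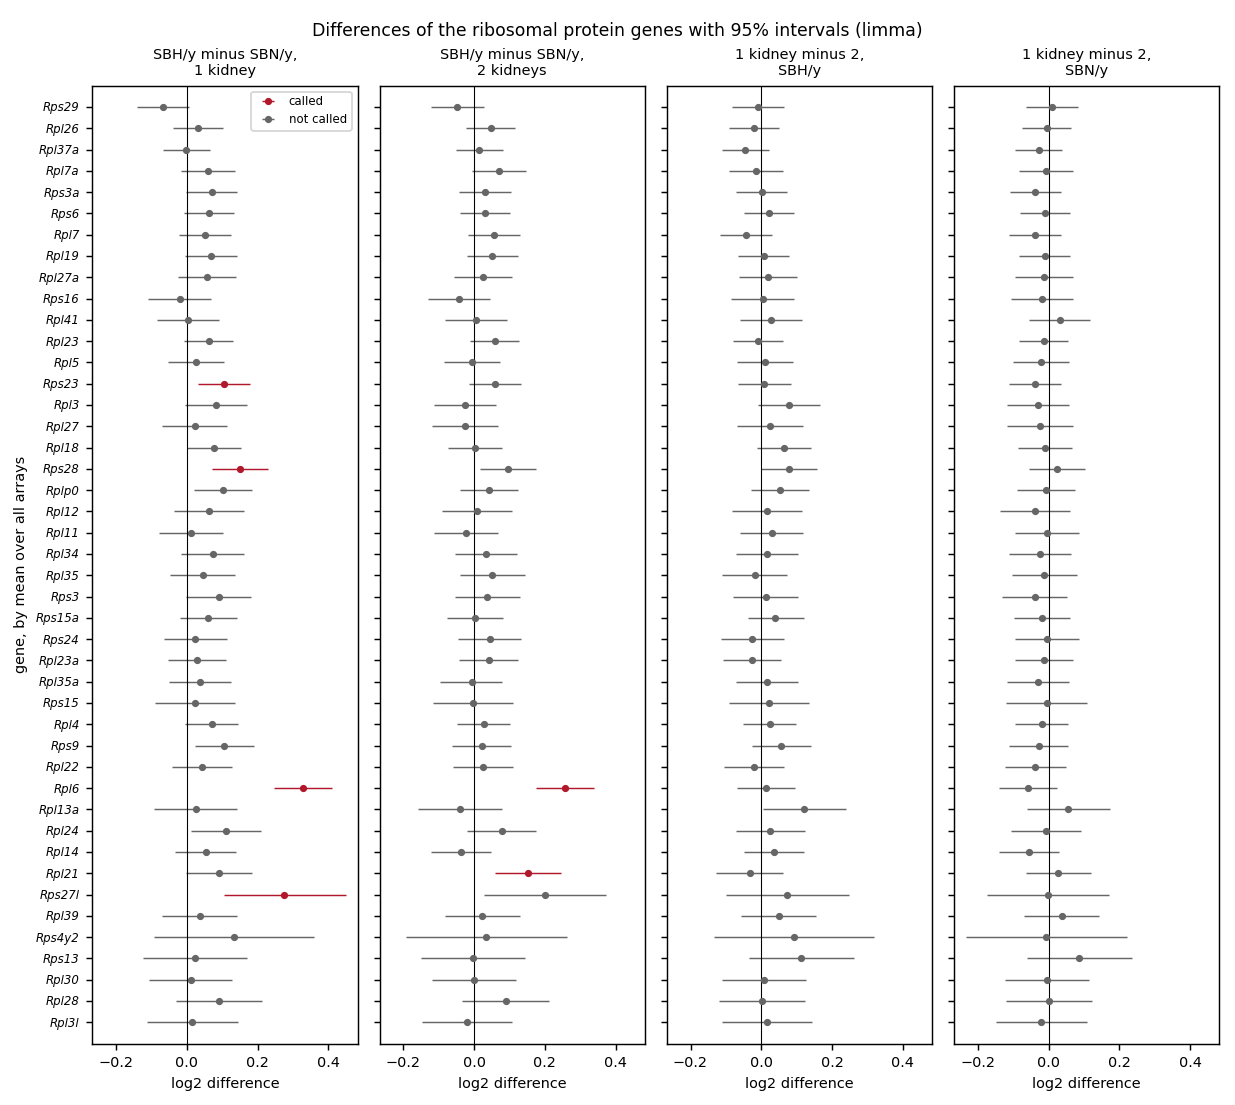
Log2 difference of each of the 44 genes (rows, by mean) with its 95% interval from limma, from left to right for SBH/y minus SBN/y with 1 kidney, SBH/y minus SBN/y with 2 kidneys, and 1 kidney minus 2 in SBH/y and in SBN/y. Red marks the 4 and the 2 genes that passed in the strain comparisons, and 0 passed in the other panels.

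An index of RNA quality was compared beside these values. It was the difference between the 3′ and the 5′ control probe sets of GAPDH, which grows as RNA breaks down. It averaged 0.54 ± 0.04 in uninephrectomized SBH/y and 0.46 ± 0.05 in SBH/y with both kidneys (SD, n = 7 each, exact two-sided permutation p = 0.00641, adjusted over 8 tests 0.0513). In SBN/y it averaged 0.51 ± 0.04 after uninephrectomy and 0.44 ± 0.08 with both kidneys (exact two-sided permutation p = 0.0717, adjusted 0.15). The strains differed in it by 0.029 after uninephrectomy and by 0.016 with both kidneys (exact two-sided permutation p = 0.181 and 0.654, adjusted 0.29 and 0.747). None of the 8 tests passed after adjustment. With the index as a covariate 0 of 44 genes passed in either uninephrectomy comparison. In the strain comparisons 6 passed after uninephrectomy and 2 with both kidneys. Over all probe sets, 4.36% then passed for uninephrectomy in SBH/y and 0.151% in SBN/y, beside 8.24% and 0.464% without the covariate.

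The genes of the family moved together from array to array within a group. Across the 28 arrays, deviations from the group means had a median Pearson r of 0.53 over the 946 pairs of genes and of 0.64 over the 666 pairs of bright genes. These points share the array, its scaling and its RNA. In replicate 2 of SBN/y with both kidneys, 40 of 44 genes lay above their group mean, and in replicate 7 of that group 3 did. In uninephrectomized SBH/y, replicate 3 had 40 above and replicate 2 had 2. The mean deviation of the family from its overall mean ran from -0.033 to 0.083 in uninephrectomized SBH/y, from -0.046 to -0.008 in uninephrectomized SBN/y, from -0.015 to 0.058 in SBH/y with both kidneys and from -0.092 to 0.108 in SBN/y with both kidneys. The common sign of many small differences is therefore not a count of independent genes.

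**Figure D5:**
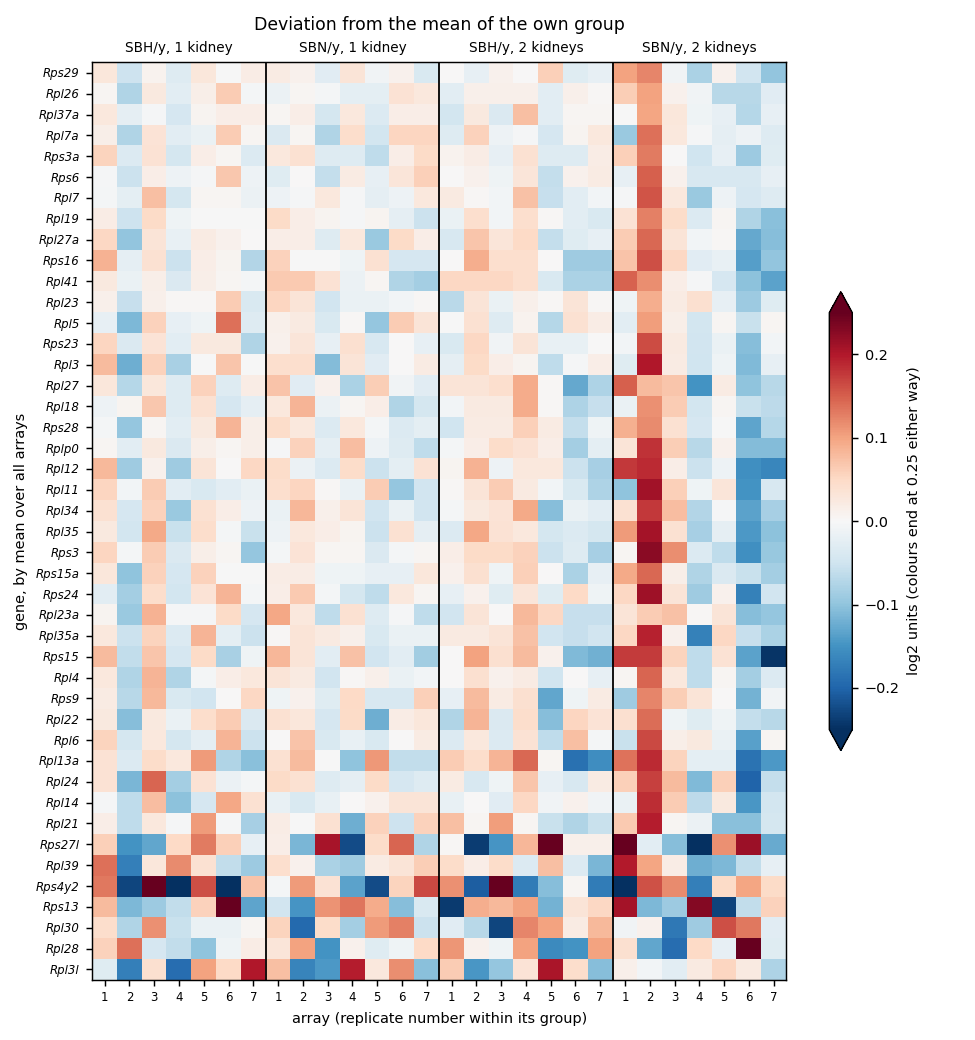
Deviation of each gene (rows, by mean) on each array (columns, by group) from the mean of its own group, in log2 units, with colours ending at 0.25 either way. Whole columns share a colour among the bright genes, as in replicate 2 of SBN/y with 2 kidneys, where 40 of 44 genes lie above their group mean, while the dim genes at the bottom vary on their own.

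Replicate 2 of SBN/y with both kidneys stood farthest from its group, so the counts were also taken without it. Then 3 genes passed between the strains with both kidneys, Rpl6, Rps28 and Rpl21, with a median difference of 0.051 over the family. After uninephrectomy 5 passed, with Rplp0 added, since the fit shares 1 estimate of the spread. Neither uninephrectomy comparison had a gene that passed, and the median effect in SBN/y turned to 0.005.

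Other probe sets of the family bear on these counts. For Rpl14, Rpl7, Rps24 and Rpl3 a second probe set had a mean between 3.94 and 7.28, and none of these passed in any comparison. The second probe set of Rpl3 came nearest, for uninephrectomy in SBH/y, at 0.165 ± 0.055 (SE, p in limma 0.0055, adjusted 0.0603). The brighter probe set of Rpl3 had 0.077 ± 0.043 there (SE, adjusted p in limma 0.307). A further 33 probe sets list several ribosomal protein symbols and so were not named, among them those that list Rps14, Rps19, Rps27, Rps4x, Rplp1 and Rpl10. Of these 33 probe sets, 9 were higher in SBH/y after uninephrectomy (27.3%), 2 were higher with both kidneys (6.06%) and none was lower in either. Over all probe sets 21.5% passed after uninephrectomy, 11.1% as higher, and 17.9% with both kidneys, 9.64% as higher. After uninephrectomy these probe sets thus passed in a larger share than all probe sets, unlike the 44 genes (9.09%). Of the 33, however, 31 had a mean above 10, and of all probe sets above 10 a larger share passed (39%). The share of the 37 bright genes was 8.11%, and none of these shares was tested. Their median differences were 0.068 and 0.047. None passed in a uninephrectomy comparison (1 and 0 with an unadjusted p under 0.05 in SBH/y and SBN/y).

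Of the 3 copies that the naming rule left out, Rpl26l1, a paralog of Rpl26, was higher in SBH/y. It is named after its values were seen. In uninephrectomized rats it had 5.27, 5.48 and 5.68 in SBH/y against 4.91, 5.16 and 5.17 in SBN/y, without overlap. With both kidneys it had 5.41, 5.6 and 5.85 in SBH/y against 4.94, 5.15 and 5.34 in SBN/y, also without overlap. The differences were 0.39 ± 0.08 after uninephrectomy and 0.50 ± 0.08 with both kidneys (SE, adjusted p in limma 0.000178 and 9.47e-06). Its mean over all arrays was 5.32, below the lowest array median of 5.72. Rpl26 itself differed by 0.03 ± 0.03 and 0.05 ± 0.03 and did not pass.

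Genes for proteins that make ribosomes or work with them were counted in the same fit, where 21.5% of all probe sets passed between the strains after uninephrectomy and 17.9% with both kidneys. Of 10 elongation factors, 4 were higher and 1 lower in SBH/y after uninephrectomy, and 2 were higher with both kidneys, 50% and 20% of the list. Eef2, which moves the ribosome along the messenger, was higher by 0.25 ± 0.04 and 0.21 ± 0.04 (SE, adjusted p in limma 2.63e-05 and 0.000489). Eif5a, which helps the ribosome through stalls, was higher by 0.13 ± 0.03 (adjusted p 0.00485) after uninephrectomy. Eif5a2 was higher by 0.312 ± 0.101 after uninephrectomy and by 0.614 ± 0.101 with both kidneys (SE, adjusted p in limma 0.0236 and 2.76e-05). None of the elongation factors passed in a uninephrectomy comparison, where the unadjusted p was under 0.05 for 1 in SBH/y and 2 in SBN/y.

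Of 34 initiation factors, 2 were higher and 2 lower after uninephrectomy, and 1 was higher and 3 lower with both kidneys, 11.8% of the list each time. Eif2b2 and Eif2b1, subunits of the exchange factor that recharges eIF2, were lower in SBH/y, with differences of -0.24 ± 0.04 and -0.20 ± 0.05 after uninephrectomy (SE, adjusted p in limma 8.77e-05 and 0.00535). Eif6, which keeps the 60S subunit from joining early, rose after uninephrectomy in SBH/y by 0.17 ± 0.04 (SE, adjusted p in limma 0.00447). It was the 1 initiation factor that passed there, 2.94% of the list beside 8.24% of all probe sets.

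Of 89 ribosome biogenesis factors, 17 were higher and 4 lower in SBH/y after uninephrectomy, and 12 were higher and 6 lower with both kidneys. These shares, 23.6% and 20.2% of the list, lay near those of all probe sets. Their median differences were 0.057 and 0.033, where those of the ribosomal proteins were 0.059 and 0.027. Nhp2, of the particles that convert uridines of ribosomal RNA, was higher by 0.36 ± 0.05 (SE, adjusted p in limma 6.87e-07) after uninephrectomy. Nop53, which acts in processing of 60S precursors, was lower, with a difference of -0.42 ± 0.06 (adjusted p 4.27e-06). After uninephrectomy in SBH/y, 2 rose and 1 fell, 3.37% of the list beside 8.24% of all probe sets. In SBN/y none passed (5 with an unadjusted p under 0.05), beside 0.464% of all probe sets.

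Of 20 genes for RNA polymerase I and its factors, 3 were higher and 2 lower in both strain comparisons, 25% of the list each time. The list holds Myc, known to drive ribosomal RNA synthesis and ribosomal protein genes. Myc was higher in SBH/y by 1.18 ± 0.13 after uninephrectomy and by 0.94 ± 0.13 with both kidneys (SE, adjusted p in limma 2.35e-08 and 2.11e-06). After uninephrectomy in SBH/y, 1 gene of the list rose and 2 fell, 15% of the list beside 8.24% of all probe sets. Myc rose by 0.48 ± 0.13 (SE, adjusted p in limma 0.02). Polr1d and Taf1b fell, with effects of -0.213 ± 0.049 and -0.274 ± 0.076 (SE, adjusted p in limma 0.00534 and 0.0215).

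Of 31 genes of the mTORC1 pathway, 4 were higher and 5 lower in SBH/y after uninephrectomy, and 4 were higher and 2 lower with both kidneys, 29% and 19.4% of the list. Ddit4, an inhibitor of mTORC1, rose after uninephrectomy by 0.49 ± 0.07 in SBH/y rats, and in SBN/y rats the rise was 0.34 ± 0.07 (SE, adjusted p in limma 2.75e-05 and 0.0198). Ddit4l, its relative, fell by 2.66 ± 0.39 in SBH/y (SE, adjusted p in limma 3.74e-05). With both kidneys Ddit4l was higher in SBH/y than in SBN/y by 2.169 ± 0.389 (SE, adjusted p in limma 9.84e-05). Ddit4 was lower there, with a difference of -0.388 ± 0.07 (SE, adjusted p in limma 9.71e-05). Of the list, 1 rose and 4 fell after uninephrectomy in SBH/y (16.1%, beside 8.24% of all probe sets). In SBN/y 1 rose (3.23%, beside 0.464%). Of 12 genes of the p53 and nucleolar stress list, 2 were higher and 2 lower after uninephrectomy and 3 were higher and 2 lower with both kidneys, 33.3% and 41.7% of the list. Mdm2, the ubiquitin ligase to which free Rpl5 and Rpl11 bind, was lower in SBH/y, with differences of -0.22 ± 0.04 after uninephrectomy and -0.21 ± 0.04 with both kidneys (SE, adjusted p in limma 0.000294 and 0.000786). Phlda3 was higher in SBH/y, by 0.207 ± 0.059 and 0.429 ± 0.059 (SE, adjusted p in limma 0.00965 and 1.63e-06). Gadd45a was higher with both kidneys by 0.365 ± 0.068 (SE, adjusted p in limma 0.000157). Its uninephrectomy effect in SBH/y was -0.371 ± 0.068 (SE, adjusted p in limma 0.000517). Sesn1 was lower in SBH/y than in SBN/y in both strain comparisons. Its differences were -0.21 ± 0.06 after uninephrectomy and -0.272 ± 0.063 with both kidneys (SE, adjusted p in limma 0.0145 and 0.00199).

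The mitochondrial ribosomal proteins, which build the separate ribosome of mitochondria, were counted beside them. Of 73 genes, 4 were higher and 9 lower in SBH/y after uninephrectomy, and 2 were higher and 15 lower with both kidneys, 17.8% and 23.3% of the list, near the shares of all probe sets. Their median differences were -0.03 and -0.064, where those of the cytosolic family were 0.059 and 0.027. Mrps14 was lower, with differences of -0.38 ± 0.04 and -0.41 ± 0.04 (SE, adjusted p in limma 5.67e-09 and 1.05e-09). Neither uninephrectomy comparison had a mitochondrial ribosomal protein that passed (9 and 2 with an unadjusted p under 0.05 in SBH/y and SBN/y).

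The tissue was kidney by its markers, with Umod at 13.25, Slc34a1 at 12.97 and Lrp2 at 12.50 over all arrays, while Pvalb was at 3.71. Of 14 kidney tissue genes, 2 were higher and 4 lower in SBH/y after uninephrectomy (42.9%). With both kidneys 1 was higher and 3 lower (28.6%). Markers of some other cell types also differed between the strains. Over all probe sets 21.5% passed after uninephrectomy and 17.9% with both kidneys. Of 20 macrophage and monocyte genes, 15 were higher and 2 lower in SBH/y after uninephrectomy (85%). With both kidneys 12 were higher and 2 lower (70%). Their mean per array ran from 6.70 to 7.07 in uninephrectomized SBH/y, from 6.39 to 6.55 in uninephrectomized SBN/y, from 6.60 to 6.95 in SBH/y with both kidneys and from 6.32 to 6.61 in SBN/y with both kidneys. Of these genes 6 were below the lowest array median. Of 13 endothelial genes, 1 was higher and 7 lower in SBH/y after uninephrectomy (61.5%). With both kidneys 1 was higher and 3 lower (30.8%). Of 12 fibroblast and matrix genes, 5 were higher after uninephrectomy (41.7%), and 2 were higher and 1 lower with both kidneys (25%). Of 22 proximal tubule genes, 7 were higher and 2 lower after uninephrectomy (40.9%). With both kidneys 5 were higher and 1 lower (27.3%). Of 15 T lymphocyte genes, 2 were higher after uninephrectomy (13.3%), while 2 were higher and 5 lower with both kidneys (46.7%). Of 9 B and plasma cell genes 1 was higher in each strain comparison (11.1%), as was 1 of 7 neutrophil genes (14.3%). Of 9 adipose genes, 2 were higher after uninephrectomy (22.2%), and 1 was higher and 2 lower with both kidneys (33.3%). Of 6 adrenal genes, 1 was higher and 1 lower after uninephrectomy (33.3%), and 0 passed with both kidneys. After uninephrectomy in SBH/y, 6 of the 20 macrophage genes (30%) and 5 of 15 T lymphocyte genes (33.3%) rose. Of 12 fibroblast and matrix genes 3 rose and 1 fell (33.3%), and of 7 neutrophil genes 1 rose and 1 fell (28.6%). Of 22 proximal tubule genes 2 rose and 3 fell (22.7%), and of 14 kidney tissue genes 2 rose and 1 fell (21.4%). Of 13 endothelial genes 2 fell (15.4%). Of 9 B and plasma cell genes 1 rose (11.1%), of 9 adipose genes 1 fell (11.1%), and of 6 adrenal genes 0 passed. Over all probe sets 8.24% passed there in either direction. Of the 15 T lymphocyte genes, 14 were below the lowest array median, as were all 7 neutrophil and all 6 adrenal genes. So were 7 of the 9 B and plasma cell genes, 4 of the 9 adipose genes and 2 of the 12 fibroblast and matrix genes. The part of these cells in the values of the ribosomal protein genes was not tested.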

How the data were processed

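The authors deposited log2 values of 31099 probe sets on 28 Affymetrix arrays, and the submitters' processing notes name GCOS and RMA, with no version. RMA corrects background, quantile-normalizes and summarises probes on the log2 scale, so total RNA per kidney cannot be seen. No array-level scanner values were used here, so detection was not measured, and the number of arrays limits the precision. Array correlations lay between 0.985 and 0.997, and no 2 arrays were identical.

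After removal of 57 control probe sets, group means were fitted to 31042 probe sets with limma 3.58.1 in R 4.3.3 (lmFit, eBayes), with p-values adjusted by Benjamini-Hochberg over all probe sets and a threshold of 0.05. The test was checked on simulated data. Differences are SBH/y minus SBN/y, or uninephrectomized minus both kidneys. Symbols came from the platform annotation, updated by gene identifier in RefSeq (GRCr8). Of the 44 genes 42 matched, and Rpl37a and Rps9 kept the platform's name. Start-site windows came from RefSeq promoters.

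Named were up to 6 called genes per direction and comparison, a panel of well-known members, the 3 highest and 3 lowest, and up to 3 called genes per list. Members and lists were chosen with earlier results of these data known. Alternatives covered normalization, a dim-probe filter, variance models, array weights, probe-set choice, covariates, the replicate block and leaving out each array.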

Additional observations from a re-analysis of the deposited data

Results flagged for a closer look

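A gap test within groups of 7 arrays (Dixon's) was run on 96 sets of values, and 4 had a highest array that stood apart, where chance gives about 1 in 20. Rps6 reached 12.54 in replicate 2 of SBN/y with both kidneys, where the next array had 12.40 and the lowest 12.35. Rpl3 reached 12.37 in the same array, with the next at 12.19 and the lowest at 12.06. In that array 40 of the 44 genes lay above their group mean. Rps29 reached 13.44 in replicate 5 of SBH/y with both kidneys, with the next at 13.39 and the lowest at 13.35. Rps4y2 reached 6.08 in replicate 3 of SBH/y with both kidneys, with the next at 5.65 and the lowest at 5.33.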

How the results depend on the processing

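Leaving out each of the 28 arrays gave 3 to 5 called ribosomal protein genes between the strains after uninephrectomy and 2 to 3 with both kidneys. The 11 other alternatives gave 3 to 6 and 1 to 3. The count of 1, Rpl6, came with only the groups compared. Both uninephrectomy effects and the interaction had 0 called genes under every alternative run, and the interaction could not be fitted with only the groups compared. Rpl6, Rps28 and Rps27l after uninephrectomy and Rpl6 with both kidneys kept their calls in all of these. Quantile normalization added Rps29, lower in SBH/y in both strain comparisons, and Rpl24, higher in SBH/y between the uninephrectomized groups. Between the uninephrectomized groups Rplp0 was also called under 5 of these 11 alternatives and Rps9 under 7. With both kidneys Rps28 was called under 3 (the dim filter, trended and robust variance, and array weights) and Rps27l under 1, the replicate block. The median of the family stayed positive in both strain comparisons, between 0.029 and 0.07 after uninephrectomy and between 0.012 and 0.051 with both kidneys. The filter on the dimmest 40% of probe sets left out 4 of the genes.

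With the replicate number as a block, 5 and 3 genes were called between the strains after uninephrectomy and with both kidneys, and 0 in the other comparisons. Over all probe sets the block gave 7567 and 6689 calls between the strains, 3500 and 280 for uninephrectomy in SBH/y and SBN/y, and 812 for the interaction, against 144 in SBN/y and 439 for the interaction without it. Over all alternatives the calls among all probe sets ran from 47 to 280 for uninephrectomy in SBN/y and from 1353 to 3500 in SBH/y. For the interaction they ran from 306 to 899. The lowest counts for uninephrectomy, 47 and 1353, came with the GAPDH index as a covariate. The labels do not say that a number marks a shared litter, batch or day. Deviations of the 42 same-numbered pairs of arrays correlated between -0.09 and 0.59, with a median of 0.16 against -0.03 for differently numbered pairs. Of the pairs 24 were over 0.1, and 10 of the 28 arrays correlated best with an array of their own number, which is a hint from the data and not from the design.

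The GAPDH index without 1 array ran from 0.069 to 0.09 for uninephrectomy in SBH/y (adjusted exact permutation p 0.028 to 0.126) and from 0.051 to 0.089 in SBN/y (0.0218 to 0.277). Between the strains after uninephrectomy the beta-actin index was -0.038, opposite in sign to GAPDH at 0.029. For uninephrectomy beta-actin had the sign of GAPDH, 0.07 in SBH/y and 0.118 in SBN/y (exact permutation p 0.0752 and 0.0594, adjusted 0.15 each). The cause was not tested.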
